A study of Homo sapiens with 5 samples.

Results

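Nucleotide and one-carbon metabolism genes were followed in hepatocellular carcinoma lines in which SALL4 was overexpressed or knocked down. SALL4 is a zinc finger transcription factor known from the embryo and from some tumours. The list held 31 symbols covering the serine and folate pathway, the methionine cycle, and purine, pyrimidine and deoxynucleotide synthesis. Members were taken as rows whose gene symbol equalled a listed symbol in every file, which gave 30 genes of 24544 symbols. AMT, of the glycine cleavage system, had no row of its own because its locus was listed jointly with NICN1. SNU-387 cells, an established human hepatocellular carcinoma line, carried an empty vector, the SALL4A isoform or the SALL4B isoform. SNU-398 cells, from another such line, were labelled as untreated input or as a knockdown against both isoforms. Per the labels' protocols every sample underwent lentiviral transduction and puromycin selection, while the source label of the SNU-398 control calls it untreated, and the cell line field of both SNU-398 samples reads SNU-387. Each of the 5 groups was 1 library, so no difference below has a replicate check or a p-value.

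One-carbon metabolism moves single carbon units from serine and glycine onto folate carriers, in mitochondria and in the cytosol, and hands them to purine, thymidylate and methionine synthesis. Serine is made from a glycolytic intermediate by PHGDH, PSAT1 and PSPH. SHMT2, MTHFD2 and MTHFD1L then release formate from mitochondria for the cytosolic enzyme MTHFD1. Purines are assembled by PPAT, GART, PAICS, ADSL and ATIC, and pyrimidines by CAD, DHODH and UMPS. Proliferating cells draw on these routes for DNA and RNA, and adult hepatocytes are a main site of methionine and folate metabolism.

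Values are FPKM, fragment numbers scaled by transcript length and by library size. Each ratio is a difference of log2(FPKM + 1), taken where either library of the pair reached 1 FPKM, and a gene is counted as higher or lower where this ratio reaches 2-fold. SALL4 itself was at 0.117 FPKM with empty vector, 23.1 with SALL4A and 10.4 with SALL4B. In SNU-398 it was at 39.4 FPKM untreated and 7.45 with the knockdown. The depth worked out from the smallest FPKM steps ranged from 7235000 fragments in the knockdown library to 23690000 fragments in the SALL4A library. Small RNA genes held 1.8% of the summed FPKM in untreated cells and 39.3% after knockdown, against 8.5% to 14.4% in the SNU-387 libraries. Of 11 hepatocyte markers, which summed to between 1.64 and 42.0 FPKM per library, APOA2 was at 0 and HNF4A under 1 FPKM in every library, and ALB was at 0 to 1.28 FPKM. SERPINA1 was at 5.78 FPKM with empty vector, 4.66 with SALL4A and 25.2 with SALL4B, and APOA1 at 0.308, 0.731 and 14.9 FPKM. Both were under 1 FPKM in SNU-398. TF went the other way, at 3.50, 0.598 and 0.278 FPKM in the SNU-387 libraries, and was also under 1 FPKM in SNU-398. The part of these markers in the member ratios was not tested. The 10 fibroblast and stellate cell markers summed to 951 FPKM with empty vector, 490 with SALL4A, 641 with SALL4B, 250.3 in untreated and 262 in knockdown cells. These sums join opposite moves. With empty vector, SALL4A and SALL4B, LUM was at 263, 176 and 488 FPKM, COL1A2 at 326, 83.2 and 8.5, and ACTA2 at 56.9, 168 and 65.4. Against empty vector their median log2 ratio was -1.51 with SALL4A (2 of 9 above 0) and -1.59 with SALL4B (3 of 9). The part of these markers in the member ratios was also not tested.

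Most members were well expressed. In untreated SNU-398 cells 30 of 30 were at 1 FPKM or more and 29 at 10 FPKM or more, with a median of 55.8 FPKM, against 13.6 FPKM for all genes at 1 FPKM or more. With empty vector in SNU-387, 28 were at 1 FPKM or more and 25 at 10 or more, and the median was 33.9 FPKM. PHGDH, which catalyses the entry step of serine synthesis, was the most abundant member in each of the 5 libraries, from 124 FPKM with empty vector to 187 FPKM with SALL4B. IMPDH2, the main enzyme of the step towards guanine nucleotides, ranked next in 3 libraries, at 97.1 FPKM with empty vector, 105 with SALL4B and 104 in untreated SNU-398. RRM2 held that rank with SALL4A and PSAT1 after knockdown.

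**Figure D1:**
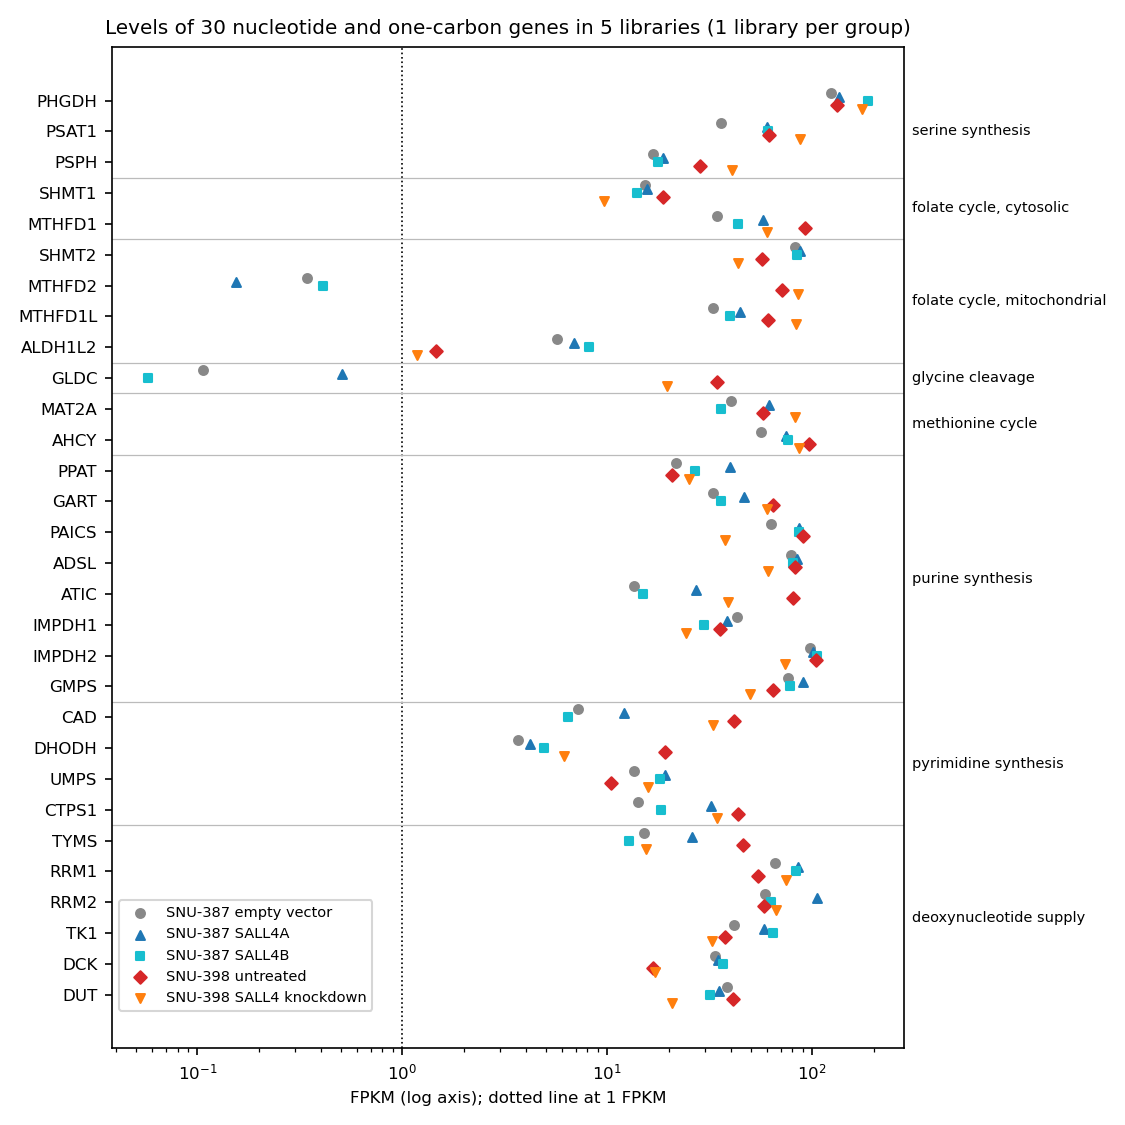
FPKM (log axis) of the 30 members, ordered by role, with 1 symbol per library and a dotted line at 1 FPKM. MTHFD2 and GLDC lie left of the line in the 3 SNU-387 libraries and between 19.5 and 85.6 FPKM in the 2 SNU-398 libraries.

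The widest spread among members was between the cell lines, in 2 genes of mitochondrial one-carbon metabolism. MTHFD2 (chromosome 2, 74198562 to 74217565, GRCh38), the mitochondrial methylene-tetrahydrofolate dehydrogenase, was at 0.343 FPKM with empty vector, 0.155 with SALL4A and 0.412 with SALL4B, against 71.0 FPKM in untreated SNU-398 cells and 85.6 after knockdown. The SNU-387 values rested on an estimated 18.3, 16.4 and 16.5 fragments. GLDC (chromosome 9, 6532464 to 6645783), the glycine-decarboxylating subunit of the glycine cleavage system, was at 0.106, 0.508 and 0.0574 FPKM in the same SNU-387 libraries and at 34.2 and 19.5 FPKM in SNU-398. Both genes were thus under 1 FPKM in every SNU-387 library and far above it in SNU-398, and neither entered the ratios within SNU-387. The paralog MTHFD2L was at 5.04 to 8.31 FPKM in SNU-387 and 2.69 to 3.83 FPKM in SNU-398. SLC4A5, which shares 1324 exon bases with MTHFD2 on the opposite strand, was at 0.024 to 0.0706 FPKM in SNU-387 and 2.59 to 9.51 FPKM in SNU-398, and a processed copy listed as MTHFD2P1 was at 0 to 0.127 FPKM in SNU-387 and 3.002 to 4.44 in SNU-398.

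Other members also lay apart between the lines. Whether the libraries were normalised jointly is not stated, so the levels are set side by side only. ATIC was at 13.5 FPKM in the empty vector library and 80.4 in untreated SNU-398, CAD at 7.21 and 41.3 FPKM, and DHODH at 3.68 and 19.1 FPKM. ALDH1L2, the mitochondrial formyl-tetrahydrofolate dehydrogenase, had the opposite order, 5.67 to 8.17 FPKM in SNU-387 and 1.18 to 1.45 FPKM in SNU-398. SHMT2 was at 82.5 to 87.3 FPKM in SNU-387 and 43.6 to 56.9 in SNU-398, so the enzyme feeding MTHFD2 was abundant in the libraries where MTHFD2 was near 0.

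With SALL4A in SNU-387, members were shifted upwards together by less than 2-fold. Of the 28 members at 1 FPKM or more, 26 lay above 0 and 2 below, with a median log2 ratio of 0.41 against 0.01 for all 12441 genes. In these bulk libraries a change in the share of cells expressing a gene and a change in RNA per cell cannot be told apart. Only CTPS1 of the 28 reached 2-fold higher, beside 2.27% of all genes, and none was 2-fold lower, beside 3.24% of all genes. The count past 2-fold was therefore near the background, and the shift appears in the median. It held under each of 8 other settings of pseudocount, filter, scaling and duplicate rows, where 25 to 27 members lay above the median of all genes. The 22 S phase and proliferation genes had a median of 0.40 in the same pair, 20 of them above 0, and their part in the members' shift was not tested.

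CTPS1 (chromosome 1, 40979335 to 41012565), which converts UTP to CTP, was at 14.1 FPKM with empty vector, 32.0 with SALL4A and 18.3 with SALL4B, against 43.3 FPKM in untreated SNU-398 and 34.3 after knockdown. Its log2 ratio with SALL4A was 1.12, with a standard error from counting alone of 0.07, and 0.95 with a pseudocount of 5. ATIC, the last enzyme of inosine monophosphate synthesis, followed at 0.95 (13.5 to 27.0 FPKM), PPAT, which commits carbon to purines, at 0.85 (21.5 to 39.6 FPKM), and the ribonucleotide reductase subunit RRM2 at 0.82 (59.1 to 105 FPKM). PSAT1 (0.74), TYMS (0.73), MTHFD1 (0.72) and CAD (0.67) were next. IMPDH1 (-0.16) and DUT (-0.13), which removes uracil nucleotides, were the members below 0.

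By role, pyrimidine synthesis had the highest median of the groups with 3 or more genes, 0.57 over 4 genes. Deoxynucleotide supply was at 0.42 (5 of 6 above 0), purine synthesis at 0.34 (7 of 8 above 0), the mitochondrial folate cycle at 0.24 over 3 genes and serine synthesis at 0.16 over 3 genes. Within the purine group the ratios were uneven: ADSL (0.09) and IMPDH2 (0.05) were near 0 while ATIC and PPAT were near 2-fold. MAT2A, which makes S-adenosylmethionine, was at 0.61 and AHCY, which clears its product, at 0.40.

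**Figure D2:**
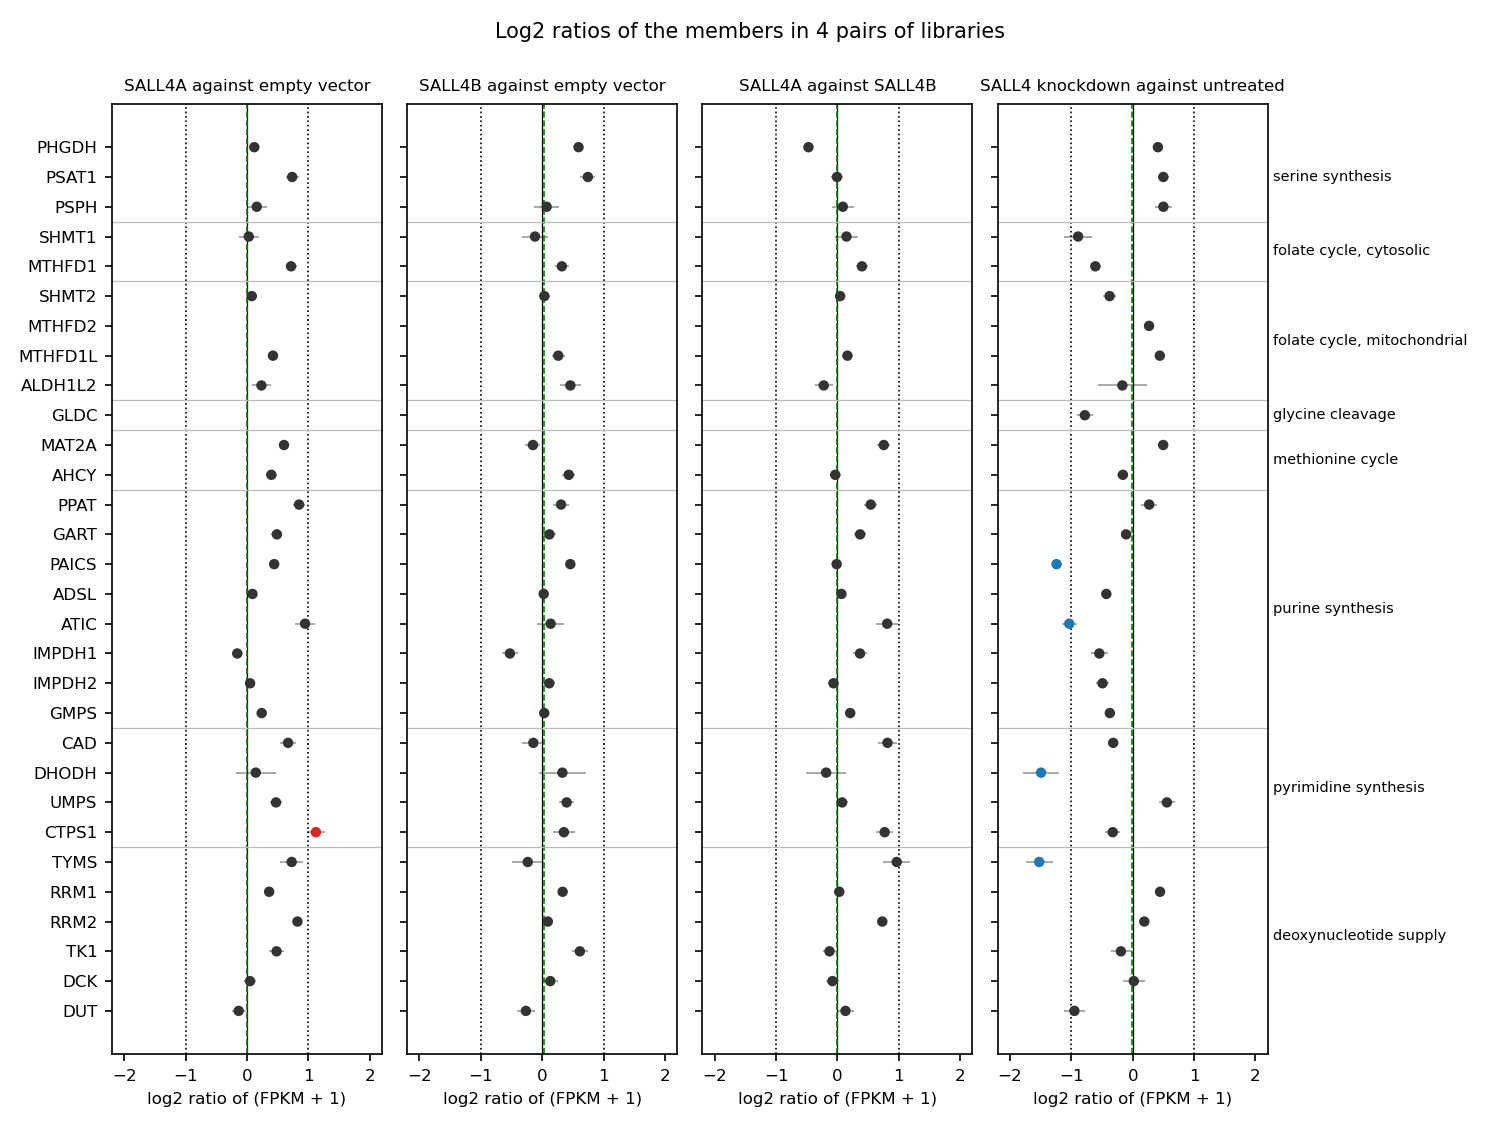
Log2 ratios of (FPKM + 1) for each member in the 4 pairs of libraries, with 95% intervals that cover counting error alone, dotted lines at 2-fold and a dashed line at the median of all genes. CTPS1 lies past 2-fold with SALL4A, and PAICS, ATIC, DHODH and TYMS lie past it on the lower side after knockdown.

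With SALL4B the members stayed closer to all genes. Their median was 0.13 against 0.04 for all 12459 genes, 22 of 28 lay above 0 and 20 above the median of all genes. No member reached 2-fold in either direction, beside 3.13% of all genes higher and 4.86% lower. PSAT1 (chromosome 9, 78297143 to 78330093), the serine synthesis aminotransferase, was the highest at 0.74, with 35.7 FPKM with empty vector, 60.2 with SALL4A, 60.5 with SALL4B, 61.5 in untreated and 87.4 in knockdown SNU-398. TK1, the thymidine salvage kinase, was at 0.61 and PHGDH at 0.59. The lowest was IMPDH1 (chromosome 7, 128392277 to 128410252), at 42.9 FPKM with empty vector, 38.3 with SALL4A, 29.5 with SALL4B, 35.7 in untreated and 24.1 in knockdown cells, a ratio of -0.53. TYMS (-0.24), MAT2A (-0.15) and CAD (-0.14) lay below 0 here and above it with SALL4A. Both comparisons use the same empty vector library.

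Compared directly, SALL4A and SALL4B differed by less than 2-fold in each of the 28 members on the log2(FPKM + 1) scale. TYMS had the highest ratio, 0.97, with 25.8 FPKM with SALL4A and 12.7 with SALL4B, and it passed 2-fold in 4 of 8 other settings. CAD (0.82), ATIC (0.81), CTPS1 (0.77), MAT2A (0.75), RRM2 (0.73) and PPAT (0.54) followed, while DHODH (-0.18), IMPDH2 (-0.06) and PAICS (-0.01) of the same pathways lay below 0. PHGDH (chromosome 1, 119648411 to 119744226) was lowest at -0.47, with 135 FPKM with SALL4A and 187 FPKM with SALL4B against 124 with empty vector, 132 in untreated and 175 in knockdown SNU-398. None of 28 members was 2-fold higher, beside 3.82% of all genes, and none 2-fold lower, beside 3.39%. The median was 0.11 against 0.00 for all 12424 genes, and 19 of 28 members lay above 0.

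**Figure D3:**
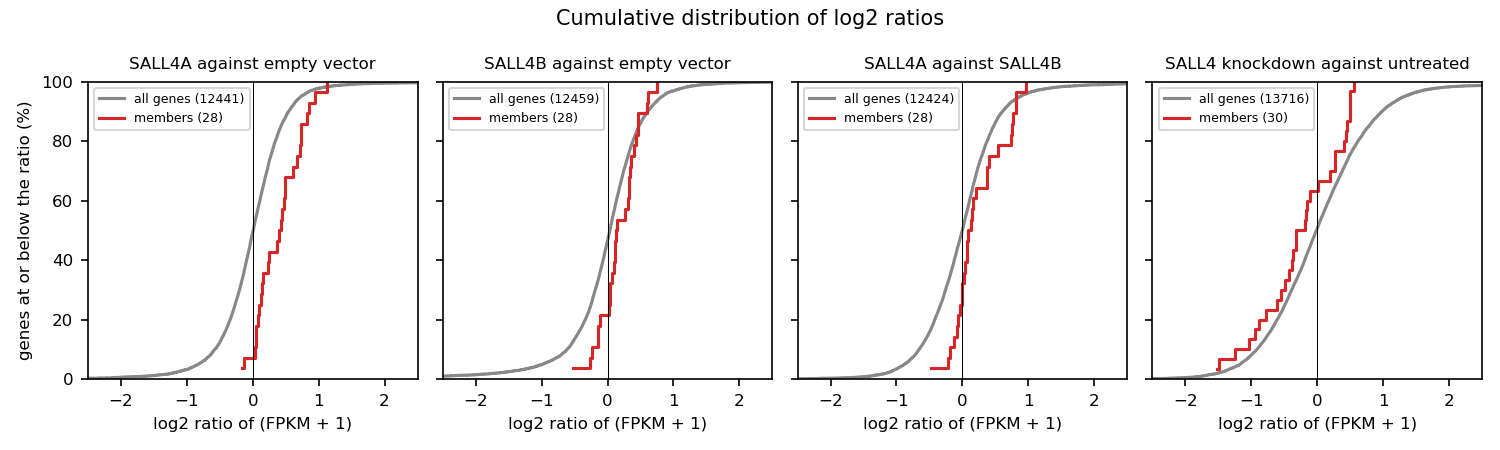
Cumulative percentage of genes at or below each log2 ratio of (FPKM + 1) for all genes (grey) and the members (red) in the 4 pairs of libraries. With SALL4A the members' curve lies to the right of all genes (medians 0.41 and 0.01), and after knockdown it lies to the left of them (-0.25 and -0.01).

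After SALL4 knockdown in SNU-398, few members passed 2-fold, and those that did were nucleotide synthesis genes on the lower side. Of 30 members, 4 were at least 2-fold lower (TYMS, DHODH, PAICS and ATIC), beside 8.13% of all 13716 genes, and none was 2-fold higher, beside 9.73%. With 4 genes, the lower count was not far above the share of all genes, and it was not tested. The members' median was -0.25 against -0.01 for all genes, with 11 above 0 and 19 below. Of the 18 purine, pyrimidine and deoxynucleotide genes 13 lay below 0, and the 3 serine synthesis genes lay above 0 by less than 2-fold. Above 0 were 3 of 6 deoxynucleotide genes, 2 of 4 mitochondrial folate genes and 1 of 2 methionine cycle genes. Both cytosolic folate genes and GLDC lay below 0. Differences between roles were not tested. These signs depend on how the small RNAs of the knockdown library are counted: scaling to a common total, which moves the median of all genes to -0.62, put 30 of 30 members below 0 and 13 past 2-fold. Relative to the median of all genes, 11 members lay above it as deposited and 12 with that scaling.

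TYMS (chromosome 18, 657604 to 673578), which makes thymidylate with a folate carbon, went from 46.2 FPKM untreated to 15.4 with the knockdown, a log2 ratio of -1.52 with a counting error of 0.11. In SNU-387 it was at 15.2, 25.8 and 12.7 FPKM with empty vector, SALL4A and SALL4B. The untreated library thus held the highest TYMS value of the 5, and the knockdown value lay within the range of SNU-387. ENOSF1, which shares 967 of the 2470 exon bases of TYMS on the opposite strand, went from 15.3 to 18.1 FPKM. Whether counting used strand is not stated, so reads of TYMS and ENOSF1 over these bases cannot be told apart.

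DHODH (chromosome 16, 72008588 to 72027664), the pyrimidine enzyme of the inner mitochondrial membrane that passes electrons to ubiquinone, went from 19.1 FPKM untreated to 6.13 with the knockdown, a ratio of -1.49 with a counting error of 0.15. With empty vector, SALL4A and SALL4B it was at 3.68, 4.18 and 4.88 FPKM, so both SNU-398 values lay above those of SNU-387. UMPS (chromosome 3, 124730366 to 124749273), the next enzyme of the route, went the other way and was the highest member of this pair at 0.56. It was at 10.4 FPKM in untreated, 15.8 in knockdown, 13.5 with empty vector, 19.1 with SALL4A and 18.05 with SALL4B. CAD (-0.32) and CTPS1 (-0.33) lay between them.

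Among purine genes, PAICS (chromosome 4, 56435741 to 56464579), a bifunctional enzyme of the middle steps, went from 89.9 FPKM untreated to 37.4 with the knockdown (-1.24), against 62.7 FPKM with empty vector, 85.7 with SALL4A and 86.5 with SALL4B. Its knockdown value was the lowest of the 5 libraries. ATIC (chromosome 2, 215311817 to 215349773) was at 80.4 and 38.7 FPKM (-1.03), above its 13.5, 27.0 and 15.0 FPKM in SNU-387, and it fell short of 2-fold after scaling to a common upper quartile (-0.96) or at a pseudocount of 5. IMPDH1 (-0.54), IMPDH2 (-0.49), ADSL (-0.43), GMPS (-0.37) and GART (-0.11) were also below 0, so 7 of 8 purine genes were below 0, 2 of them past 2-fold, with a median of -0.46. Of all genes in this pair, 6773 of 13716 lay above 0. PPAT (chromosome 4, 56393362 to 56435615) was the exception at 0.27, at 20.7 FPKM untreated and 25.2 with the knockdown.

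The serine synthesis genes had nearly equal ratios after knockdown: PHGDH 0.41, PSAT1 0.50 and PSPH 0.50, from 132 to 175, 61.5 to 87.4 and 28.4 to 40.6 FPKM. Of the mitochondrial folate genes, MTHFD1L was at 0.44 and MTHFD2 at 0.27, while SHMT2 was at -0.38 and ALDH1L2 at -0.17. The cytosolic folate genes were both below 0, SHMT1 at -0.89 and MTHFD1 at -0.61, as was GLDC at -0.78. MAT2A was at 0.50, AHCY at -0.16, RRM1 at 0.45, RRM2 at 0.19, DCK, the deoxycytidine salvage kinase, at 0.02, TK1 at -0.19 and DUT at -0.95. Relative to the median of all genes, PHGDH, PSAT1, PSPH, MTHFD1L and MTHFD2 stayed on the higher side in each of 8 other settings, although their own ratios were below 0 with a common total.

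**Figure D4:**
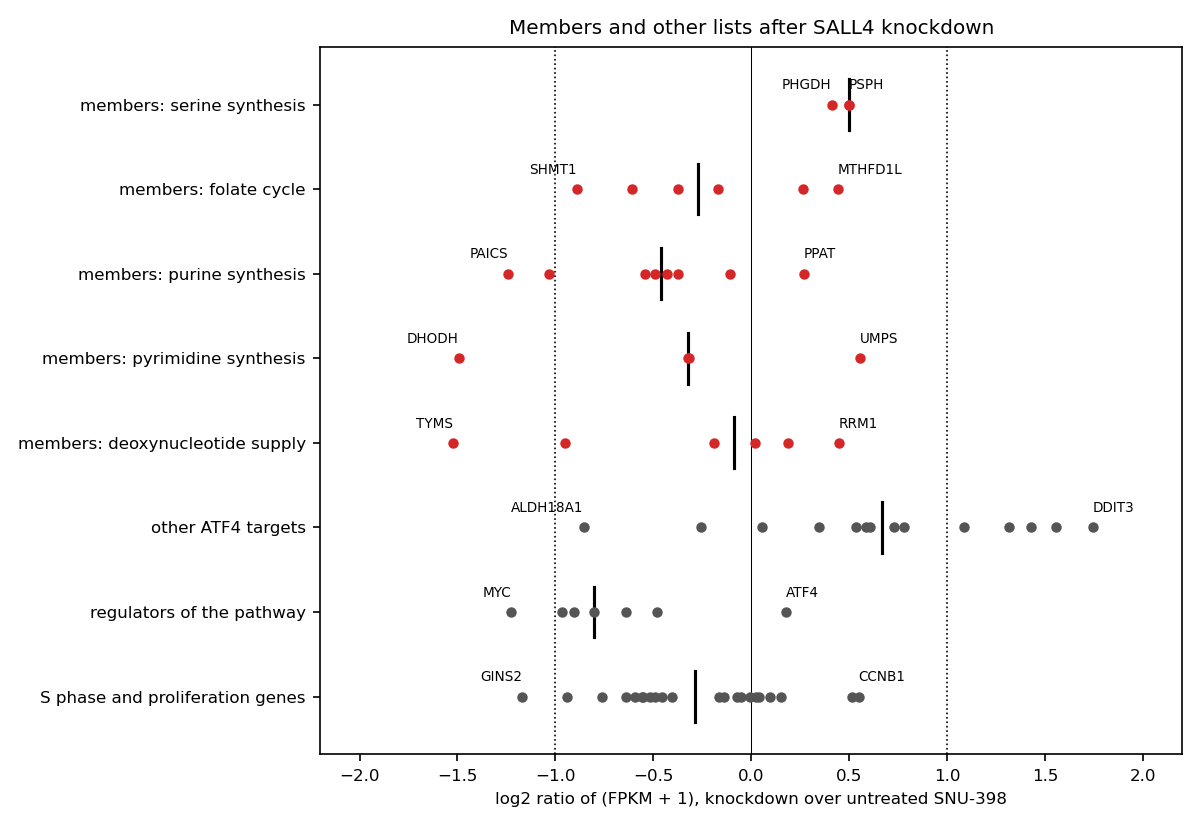
Log2 ratios of (FPKM + 1), knockdown over untreated SNU-398, for member groups (red) and other gene lists (grey), 1 point per gene, with a bar at each median, the outermost genes named and dotted lines at 2-fold. Serine synthesis genes sit between 0.41 and 0.50, other ATF4 targets have a median of 0.67 and purine synthesis genes one of -0.46.

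Genes known as targets of ATF4, a stress-induced activator of serine synthesis genes, lay mostly above 0 in the same pair. Of 14 such genes outside the members, 12 lay above 0, 5 were at least 2-fold higher, beside 9.73% of all genes, and none 2-fold lower, beside 8.13%. Their median was 0.67 against -0.01 for all genes. Past 2-fold were DDIT3 (72.8 to 246 FPKM), SLC3A2 (39.7 to 119), CHAC1 (9.66 to 27.7), SESN2 (10.6 to 28.0) and DDIT4 (9.74 to 21.8 FPKM). ATF4 mRNA was at 0.18. Among other regulators, MYC, which activates nucleotide synthesis genes, went from 104 to 43.7 FPKM (-1.22), and E2F1, E2F2 and E2F3 were at -0.91, -0.80 and -0.97. The 22 S phase and proliferation genes had a median of -0.29 with 1 of them, GINS2, at least 2-fold lower. In SNU-387, MYC was at 31.8 FPKM with empty vector, 50.1 with SALL4A and 68.9 with SALL4B, ratios of 0.64 and 1.09. E2F1, E2F2 and E2F3 were at 0.86, 0.81 and 0.615 with SALL4A and at 0.02, 0.40 and 0.17 with SALL4B. The members' medians in these 2 pairs were 0.412 and 0.135. How far any of these moved the members was not tested.

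Of 73 other genes of the same pathways, 52 were at 1 FPKM or more in this pair, and 7 were at least 2-fold lower, beside 8.13% of all genes, and none higher, beside 9.73%. Their median was -0.32, with 15 above 0. The 2-fold lower genes included ADA (-1.78), DCTPP1 (-1.29), DGUOK (-1.28), APRT (-1.11), PRPS2 (-1.08) and MTFMT (-1.02). With SALL4A, 2 of 57 such genes were 2-fold higher (CBS and PNP), beside 2.27% of all genes, and none lower, beside 3.24%. Their median was 0.05, and that of the members 0.41. The salvage enzyme HPRT1 was at 0.72 with SALL4A and -0.79 after knockdown.

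Promoter sequences are shown for ATIC, DHODH and PAICS, the members past 2-fold after knockdown that held the E box described below. PPAT is shown with PAICS, because these 2 differed after knockdown although they start close together on opposite strands. In the RefSeq table (GRCh38.p14), with windows from 250 bases before to 50 bases after each start, 26 of 31 listed genes had a window, and starts of PPAT and PAICS were 137 bases apart. The E box CACGTG, a palindrome bound by MYC and related factors, was searched on both strands. It was in windows of 7 of 26 members (26.9%: ATIC, DCK, DHODH, MTHFD1, MTHFD1L, PAICS and PPAT), against 8.77% of 27305 symbols and 7.26% of all windows. PAICS and PPAT were both counted for the same match. The symbols were not matched to the members for expression or base composition, so the shares are set side by side only. After knockdown, ATIC, DHODH and PAICS were at least 2-fold lower and MTHFD1 was at -0.61. DCK was at 0.02, PPAT at 0.27 and MTHFD1L at 0.44. Whether the matches had a part in these ratios was not tested. TYMS held none of the 4 motifs searched, which says only that these letters are not in its window. Capitals mark matches.
ATIC, 250 bases upstream of the start (chr2:215311809-215312058, plus strand): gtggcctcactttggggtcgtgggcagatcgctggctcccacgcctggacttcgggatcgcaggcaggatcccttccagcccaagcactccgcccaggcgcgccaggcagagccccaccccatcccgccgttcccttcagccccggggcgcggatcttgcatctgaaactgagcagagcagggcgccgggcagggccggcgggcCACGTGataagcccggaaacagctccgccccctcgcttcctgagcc
DHODH, 250 bases upstream of the start (chr16:72008494-72008743, plus strand): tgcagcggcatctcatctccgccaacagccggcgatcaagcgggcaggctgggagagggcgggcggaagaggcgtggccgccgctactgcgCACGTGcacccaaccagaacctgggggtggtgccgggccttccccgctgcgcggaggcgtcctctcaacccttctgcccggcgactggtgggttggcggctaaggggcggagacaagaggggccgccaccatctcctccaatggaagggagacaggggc
PAICS and PPAT, the 22 bases at the shared match (chr4:56435780-56435801, plus strand): ctgtatttgctgCACGTGgaaa
PAICS and PPAT, the 136 bases between the starts (chr4:56435616-56435751, plus strand): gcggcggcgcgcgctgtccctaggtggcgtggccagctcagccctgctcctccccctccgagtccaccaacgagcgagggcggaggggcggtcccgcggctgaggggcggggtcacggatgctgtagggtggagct

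The E box of PAICS began 41 bases into its transcript, counting the start as 1, and the same letters lay at position -182 from the PPAT start. The palindrome AATATT, AT-rich letters of the kind bound by a zinc finger cluster of SALL4, was in none of the 26 members' windows and in 8.46% of all symbols. With so few windows and no matching for base composition, this says only that these letters are not in them. Binding of SALL4 was not tested. The consensus of NRF1, a regulator of mitochondrial genes, was in windows of CTPS1, MTHFD1 and a later start of PAICS, 11.5% of members against 6.98% of symbols. The core of the C/EBP-ATF response element, TGATGNAA, was in MTHFD1L alone among the members, 3.85% against 4.46%. CTPS1, the member highest with SALL4A, and MTHFD1L are printed for these matches, also in capitals.
CTPS1, 250 bases upstream of the start (chr1:40979446-40979695, plus strand): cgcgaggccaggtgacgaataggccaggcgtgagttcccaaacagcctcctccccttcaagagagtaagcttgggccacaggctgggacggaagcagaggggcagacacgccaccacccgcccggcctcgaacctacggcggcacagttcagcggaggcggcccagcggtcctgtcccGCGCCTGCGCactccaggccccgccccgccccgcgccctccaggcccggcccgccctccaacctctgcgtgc
MTHFD1L, 30 bases around the match (chr6:150866346-150866375, plus strand): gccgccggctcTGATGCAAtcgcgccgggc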

How the data were processed

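RNA-seq libraries came from 5 samples, 1 per group. The deposited values are FPKM per gene made by the authors, per the file headers. Tools given per the submitters' processing notes, with no version, are Cufflinks, Cuffdiff, TopHat2 and SAMtools; builds are hg38 and GRCh38. For annotation, strand use and joint normalisation, nothing is stated in the sources used here. Total RNA went into the ScriptSeq Complete Gold kit, per the labels' protocols.

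Each file had 26032 lines. The 17 without a gene name were dropped, and FPKM was added up for 450 symbols on several lines, none a member. Ratios used a pseudocount of 1 and a filter of 1 FPKM in either library; this scale understates changes of low genes. Groups followed the sample titles. Depth was estimated from FPKM steps of 1-transcript genes of at least 1500 bases (GENCODE 29); between 64.1% and 69.4% of low values lay within 0.1 of a whole fragment number. Fragments per gene used principal transcript lengths, and counting errors cover counting alone. Named genes were members past 2-fold, the highest and lowest per pair, and listed genes past 2-fold at 5 FPKM or more. MTHFD2L, HPRT1, E2F genes, ATF4, ALB, HNF4A, TF and genes overlapping members were named after their values were seen. Members and lists were chosen with earlier results of these data known. Of 31 symbols listed for folate, 19 for purine, 18 for pyrimidine and 5 for deoxynucleotide genes, 69 had a row, 3 under an older symbol. Functions were tested on simulated data. Python 3.11.15, numpy 2.4.6, pandas 2.3.3 and matplotlib 3.10.9 were used. The values of 1 listed gene are not reported here.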

Additional observations from a re-analysis of the deposited data

How the results depend on the processing

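With 1 library per group no replicate could be left out. No paired analysis was possible because each group has 1 sample. Of 908 member ratios recomputed under other settings, 879 moved by less than 1.5-fold and 29 by more, and no ratio past 2-fold changed sign. A common total moved the knockdown median of the members from -0.255 to -0.906 and the count of lower members from 4 to 13, because the small RNAs of that library count in its total; the median of all genes went to -0.62, and 3.87% of genes were then higher and 29.1% lower. Counting from 1.5-fold gave 8 of 30 members lower after knockdown, beside 20.8% of all genes, and none higher, beside 21.2%. With SALL4A it gave 9 of 28 higher, beside 8.72%, and none lower, beside 9.74%. With SALL4B it gave 3 of 28 higher, beside 10.8%, and none lower, beside 10.6%. For SALL4A against SALL4B it gave 6 of 28 higher, beside 10.7%, and none lower, beside 12.3%. The count of higher members with SALL4B was thus near the share of all genes. For SALL4A against empty vector, a pseudocount of 5 gave 0 members past 2-fold and a common total without small RNAs gave 2. For SALL4A against SALL4B, a pseudocount of 0.1 and each of the 3 scalings gave 1 member higher instead of 0. Among all genes of that pair a common total without small RNAs gave 5.17% higher and 1.91% lower, where the deposited values gave 3.82% and 3.39%, and moved their median to 0.17; it moved that of SALL4A against empty vector to 0.10. The knockdown library has the lowest depth, so its low genes are the least precise.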

Other observations

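Transsulfuration, which carries homocysteine from the methionine cycle to cysteine, showed the widest ratios of the other one-carbon genes within SNU-387. CBS, its entry enzyme, was at 3.28 FPKM with empty vector, 8.57 with SALL4A and 19.1 with SALL4B, and at 67.2 and 73.2 FPKM in untreated and knockdown SNU-398. CTH, the next enzyme, was at 15.95, 20.0 and 49.3 FPKM in SNU-387 and at 0.85 and 1.17 FPKM in SNU-398. CBS and CTH were therefore highest with SALL4B within SNU-387 and took opposite orders between the lines. BHMT2 and DMGDH, also listed as one-carbon genes, were at 39.5 to 62.6 FPKM and 8.62 to 11.2 FPKM in SNU-387. Both were under 0.5 FPKM in SNU-398. BHMT2, DMGDH and CTH in SNU-398 were singled out after their values were seen.

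SLC7A5 and SLC3A2 encode the chains of an amino acid transporter. SLC7A5 was at 10.7 FPKM with empty vector, 27.1 with SALL4A and 30.1 with SALL4B, log2 ratios of 1.26 and 1.41. NT5E, which makes adenosine outside the cell, was at 98.4 FPKM with empty vector, 132 with SALL4A and 49.1 with SALL4B. Its log2 ratio was 1.40 for SALL4A against SALL4B, and against empty vector 0.42 with SALL4A and -0.99 with SALL4B. The joint row of AMT and NICN1 was at 1.95, 1.09 and 3.07 FPKM in SNU-387 and 1.73 and 3.77 FPKM in SNU-398, which cannot be divided between the genes.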
